A study of Mus musculus with 2 samples.

Results

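Genes that make, bind, break down and sense retinoic acid were described in cultured mouse neural retinal progenitor cells (mNRPCs) and in mouse retina. The 9 genes were Crabp1, Crabp2, Aldh1a1, Aldh1a2, Aldh1a3, Cyp26b1, Stra6, Rara and Rarb, out of 31253 genes to which the transcripts of the table could be assigned. They were picked by name from the retinoic acid pathway, with the knowledge that Crabp1 was among the most raised genes in this comparison, so their ratios between the libraries are given as a description. The study aimed to grow self-renewing retinal progenitor cells from adult retina, and examined whether the cells express progenitor markers. The deposited data used here hold 1 mNRPC library and 1 retina library, both from the mouse strain C57BL/6. The mNRPCs had been isolated from retina and carried to passage 24. They were grown with bFGF, a fibroblast growth factor, and with CHIR99021, which blocks glycogen synthase kinase. The cells are thus 1 culture at 1 passage. By the study's methods the culture came from young adult mice. The age of the mice behind the retina library and the number of animals behind either library were not given in the sources used here. There were no replicates, so the spread between samples is unknown and no p-value was calculated.

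Retinoic acid is a small signalling molecule made from vitamin A. Retinol enters cells through the membrane receptor STRA6, is oxidised to retinaldehyde, and is then oxidised irreversibly to retinoic acid by the retinaldehyde dehydrogenases ALDH1A1, ALDH1A2 and ALDH1A3. The cellular binding proteins CRABP1 and CRABP2 carry it, CYP26 enzymes break it down, and retinoic acid receptors (RARs) paired with retinoid X receptors (RXRs) switch genes on when it binds. In the embryonic eye ALDH1A1 marks dorsal retina and ALDH1A3 ventral retina.

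RAR and RXR pairs bind direct repeats of a short element, and the receptor gene Rarb is a textbook target of its own pathway. The start regions of the genes are therefore shown first. RefSeq start windows of the build GRCm38.p6, from 250 bases before to 50 bases after a transcript start, were found for 7 of the 9 genes. Crabp2 and Aldh1a3 had none. Both strands of the 14 windows were searched for direct repeats of any of 4 units of 6 bases, namely AGGTCA or the variants with AGTTCA, with GGTTCA or with GGGTCA. With a spacing of 5 bases a repeat lay in 1 window, that of Rarb, on chr14:16575427-16575726 (minus strand). It ran from base -53 to base -37 relative to the start, and is in capitals here.
Rarb: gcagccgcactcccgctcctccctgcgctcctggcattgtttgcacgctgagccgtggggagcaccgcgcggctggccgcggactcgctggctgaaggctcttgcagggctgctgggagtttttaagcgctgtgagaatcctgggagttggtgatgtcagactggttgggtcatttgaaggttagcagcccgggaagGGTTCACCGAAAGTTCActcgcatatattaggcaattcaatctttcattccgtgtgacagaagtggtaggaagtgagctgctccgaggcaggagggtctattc

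Of all 32851 windows 32 (0.0974%) held such a repeat. No member window held a repeat spaced by 1 or by 2 bases, which were in 0.222% and 0.268% of all windows. Among 50 windows of other retinoic acid pathway genes 1 held the repeat spaced by 5 bases, that of Cyp26a1, which encodes another retinoic acid hydroxylase. The Cyp26a1 element, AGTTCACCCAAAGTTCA, lay on the other strand between bases -32 and -16. These matches are letters in a sequence and not measured binding.

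The Crabp1 window, on chr9:54764498-54764797 (plus strand), is shown because Crabp1 had by far the largest level of the 9 genes in mNRPCs. Its GC boxes, GGGCGG on either strand, are in capitals.
Crabp1: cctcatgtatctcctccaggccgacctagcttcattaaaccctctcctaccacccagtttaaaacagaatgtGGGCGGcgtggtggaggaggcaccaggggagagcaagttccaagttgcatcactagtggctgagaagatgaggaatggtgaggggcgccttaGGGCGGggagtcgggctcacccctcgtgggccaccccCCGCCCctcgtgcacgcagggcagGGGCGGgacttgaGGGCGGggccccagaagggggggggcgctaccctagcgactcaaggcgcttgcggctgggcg

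This window held 5 GC boxes and no TATAAA, and 65% of its bases were G or C. At least 1 GC box was in 35.7% of all windows, and 5 or more were in 2.71%.

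Levels are the FPKM values deposited by the authors, which count fragments relative to transcript length and library size, summed over the transcripts of a gene. Log2 ratios compare mNRPCs with retina after 1 was added to both FPKM values. Genes with at least 1 FPKM in 1 library were compared, and a log2 ratio of 1 or more in either direction was called higher or lower in mNRPCs. Depth was estimated from the commonest value of FPKM times length among the lowest values, which was taken as 1 fragment. It came to about 6474000 fragments for mNRPCs and 5059000 for retina. The estimate was sought within a preset range only, and the lowest values were not clean multiples of 1 fragment. Fragment numbers of single genes and the 95% intervals made from these are therefore approximate, and they cover counting error only. The labels were checked against markers. Of 12 progenitor markers 7 were higher and 3 lower in mNRPCs, beside 24.5% higher and 30.0% lower among all genes compared. Sox2 was among the higher ones (231 against 18.5 FPKM), while Rax was at 81.7 FPKM in retina and listed at 0 in mNRPCs. The summed FPKM of 14 rod genes was 20.4 in mNRPCs and 24596 in retina. Of 9 markers of fibroblasts and pericytes 7 were compared, 4 were higher in mNRPCs and 0 lower, beside 24.5% and 30.0% of all genes. In mNRPCs Col3a1 was at 450 FPKM, Prrx1 at 108 and Twist1 at 83.7, while Lum was listed at 0 and Col1a2 was at 0.0843.

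Of the 9 genes 6 were compared. Crabp1 was higher in mNRPCs, Aldh1a1 and Rarb were lower, and Crabp2, Rara and Stra6 lay between. The other 3, Aldh1a2, Aldh1a3 and Cyp26b1, were under 1 FPKM in both libraries. Among all 13780 genes compared 24.5% were higher and 30.0% lower, and the median log2 ratio was -0.12. In a bulk library fewer cells of a type and less RNA per cell cannot be told apart.

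**Figure D1:**
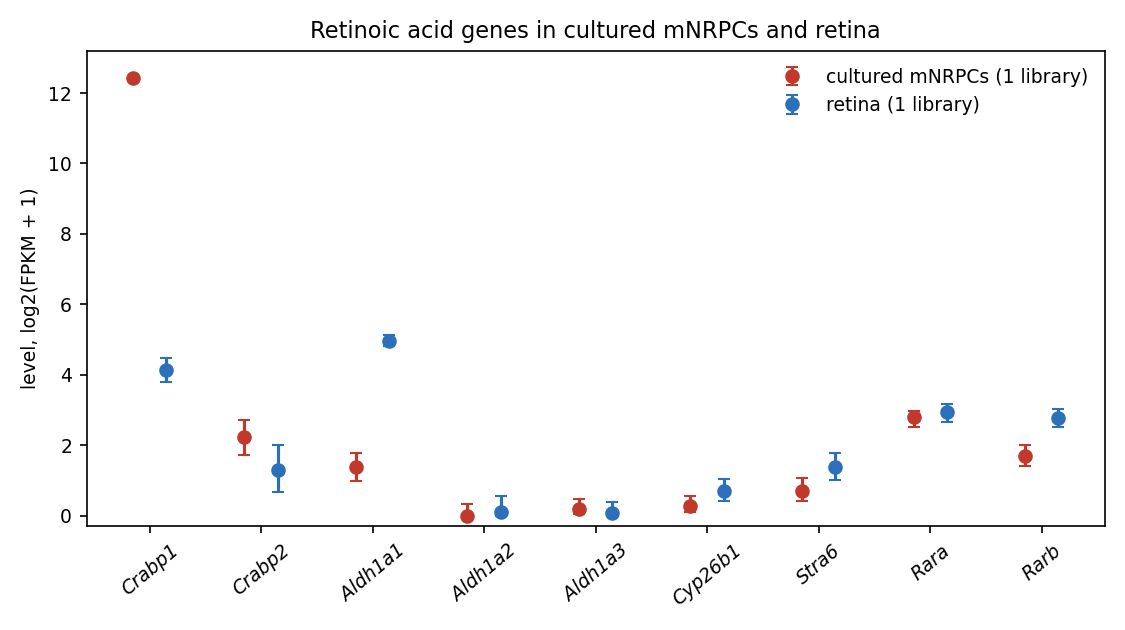
Level of each of the 9 genes as log2(FPKM + 1) in the mNRPC library (red) and the retina library (blue); bars are approximate 95% Poisson intervals of counting error. Crabp1 stands far above the other genes in mNRPCs, Aldh1a1 is the highest of the 9 in retina, and Aldh1a2 and Aldh1a3 are near 0 in both.

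Of the binding proteins, Crabp1 was at 5456 FPKM in mNRPCs and at 16.7 FPKM in retina. This is a 326-fold higher level in mNRPCs (95% interval 257 to 419), with a log2 ratio of 8.27. CRABP1 is a cytoplasmic carrier that holds retinoic acid outside the nucleus. In mNRPCs Crabp1 had the 3rd highest FPKM of all genes and made up 0.884% of the library's FPKM, whereas in retina it ranked 4542nd with 0.00387%. Its log2 ratio was the 3rd largest of the genes compared. The 3 genes nearest to Crabp1 in the levels of both libraries were Lgals1 (3987 and 22 FPKM), S100a11 (2749 and 13.8 FPKM) and S100a4 (3699 and 8.23 FPKM), at distances of 0.587, 1.02 and 1.10 on the log2(FPKM + 1) scale. As given above, 7 of 9 markers of fibroblasts and pericytes were compared. In the same library 4 were higher, beside 24.5% of all genes compared. The 9 markers summed to 651 FPKM in mNRPCs, mostly from Col3a1, Prrx1 and Twist1, against 7.49 in retina, and their part in the Crabp1 level was not tested.

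Crabp2 encodes the carrier that hands retinoic acid to RARs in the nucleus. It was at 3.72 FPKM in mNRPCs and at 1.48 FPKM in retina, which rest on about 22.4 and 6.99 fragments. The ratio of the FPKM values was 2.50 (95% interval 1.01 to 6.81). On the log2(FPKM + 1) scale it was 0.93, just under the threshold, and with a pseudocount of 0.1 it was 1.27 and past it. Within a library, where scaling has no part, Crabp1 exceeded Crabp2 1468-fold in mNRPCs and 11.3-fold in retina. Fabp5, which encodes a fatty acid binding protein that also takes up retinoic acid, was at 384 FPKM in mNRPCs and at 26.0 in retina (log2 ratio 3.83). Of the summed FPKM of these 3 genes Crabp1 held 93.4% in mNRPCs and 37.8% in retina, where Fabp5 held the most (58.8%).

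Of the retinaldehyde dehydrogenases only Aldh1a1 was compared, and it was lower in mNRPCs. It was at 1.61 FPKM in mNRPCs and at 30.3 FPKM in retina, about 21.3 and 315 fragments. The level was 18.9-fold lower in mNRPCs (95% interval 12.3 to 31.5), a log2 ratio of -3.59. The mNRPC level was 5.29% of the retina level. For 14 rod genes the median of this share was 0.0521%. Aldh1a1 has a close copy in the mouse, Aldh1a7, and 3.06% of its 50-base stretches also occur in other genes, most often Aldh1a7. Aldh1a7 was at 1.12 FPKM in mNRPCs and at 1.39 in retina. In mNRPCs this is about 15 fragments, too few to separate the level from that of Aldh1a1, whereas in retina Aldh1a1 was 21.8-fold above it. With both genes summed the log2 ratio was -3.14. Of 10 markers of Müller glia, the support cells of the retina, 9 were lower, beside 30.0% of all genes compared. The lower markers included Glul (31.4 against 897 FPKM) and Rlbp1 (0.0986 against 202 FPKM), while the marker Vim was higher. Their part in the Aldh1a1 level was not tested.

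Aldh1a2, the main enzyme of retinoic acid synthesis in embryonic mesoderm, had a listed value of 0 in mNRPCs against 0.0814 FPKM in retina, about 0.932 fragments. At the estimated depth 3 fragments would be 0.205 FPKM in mNRPCs and 0.262 FPKM in retina, and Aldh1a2 was under this level in both libraries. Aldh1a3 was at 0.140 FPKM in mNRPCs, about 3.11 fragments, and at 0.0490 FPKM in retina, about 0.853 fragments. The ratio of 2.85 had an interval from 0.188 to 123 and gave no direction. Together these 3 genes summed to 1.75 FPKM in mNRPCs and to 30.5 FPKM in retina, 17.5-fold less in mNRPCs. Aldh1a1 held 92.0% of this sum in mNRPCs and 99.6% in retina.

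Stra6, the retinol uptake receptor, was at 0.633 FPKM in mNRPCs and at 1.63 FPKM in retina, about 11.9 and 23.8 fragments. The level was 2.57-fold lower in mNRPCs (95% interval 1.23 to 5.62), and the log2 ratio was -0.69. It passed the threshold with a pseudocount of 0.1 (-1.24) and after both libraries were rescaled to a common sum (-1.23). That rescaling also took the median log2 ratio of all genes from -0.12 to -0.68. Set against the all-gene median, Stra6 was at -0.57 as deposited and at -0.55 after rescaling. STRA6 is best known from the retinal pigment epithelium. Of 11 markers of pigment epithelium 8 were compared and 8 were lower in mNRPCs, beside 30.0% of all genes compared. In retina Rpe65 was at 8.53 FPKM, while Best1, Tyr and Slc45a2 were under 1 FPKM in both libraries. The 11 markers summed to 0.309 FPKM in mNRPCs and to 118 FPKM in retina, where Ttr (56.5 FPKM) and Rgr (22.1 FPKM) were the largest. Their part in the Stra6 level was not tested.

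Cyp26b1, a hydroxylase that clears retinoic acid, was at 0.205 FPKM in mNRPCs and at 0.622 FPKM in retina, about 5.53 and 13.1 fragments. The level was 3.03-fold lower in mNRPCs with an interval from 0.983 to 8.90, so that a difference was not shown at this depth. The lower value rested on 1 predicted transcript in retina, and over curated transcripts alone the log2 ratio was -0.0039. Cyp26a1 was at 1.71 and 1.60 FPKM, and Cyp26c1 was at 0.196 FPKM in retina and listed at 0 in mNRPCs. The 3 hydroxylase genes summed to 1.92 FPKM in mNRPCs and 2.41 FPKM in retina.

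Of the receptors, Rara was at 5.95 FPKM in mNRPCs and at 6.69 FPKM in retina, about 117 and 106 fragments. The ratio of 0.889 (95% interval 0.657 to 1.13) did not separate the libraries, and the log2 ratio was -0.15. The transcripts behind these sums differed. With curated transcripts alone Rara had a log2 ratio of 1.61, with accessions matched by version 1.44, and with the highest transcript of each library -1.24, so that its direction depends on which transcripts are counted. Rarb was at 2.27 FPKM in mNRPCs and at 5.87 FPKM in retina, about 45.7 and 92.3 fragments. It was 2.58-fold lower in mNRPCs (95% interval 1.78 to 3.73), with a log2 ratio of -1.07, just past the threshold. Relative to the median of all genes Rarb was at -0.95.

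The order of the 9 levels differed between the libraries. In mNRPCs Crabp1 was followed by Rara, Crabp2, Rarb, Aldh1a1, Stra6, Cyp26b1, Aldh1a3 and Aldh1a2. Apart from Crabp1 the interval of each gene in this order overlapped that of the next one, so that these neighbours were not separated. In retina the order was Aldh1a1, Crabp1, Rara, Rarb, Stra6, Crabp2, Cyp26b1, Aldh1a2 and Aldh1a3. Aldh1a1 (27.1 to 33.9 FPKM) and Crabp1 (13 to 21.2 FPKM) stood apart from each other and from the genes after them, and so did Rarb (4.72 to 7.18 FPKM) from Stra6 (1.04 to 2.41 FPKM), while the other neighbours overlapped. Over curated transcripts alone Rara was at 0.824 FPKM in retina and took the 5th place, after Rarb and Crabp2.

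The table gives a value for each RefSeq transcript, a layer that the sums per gene do not show. Aldh1a1, Aldh1a2, Aldh1a3 and Crabp2 had 1 transcript each. Crabp1 had 2, and NM_013496 held 99.5% of its FPKM in mNRPCs and 96.4% in retina. For the receptor genes the leading transcript changed. Of the 4 Rarb transcripts NM_011243 was at 0.149 FPKM in mNRPCs and at 5.35 in retina, 6.55% and 91.1% of the gene. NM_001289762 was at 1.76 FPKM in mNRPCs and at 0.501 in retina, 77.7% and 8.54% of the gene. All 4 Rarb transcripts are paired with the same GENCODE M21 transcript, so the reference did not show which of these begins at the window with the repeat.

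Of the 7 Rara transcripts the predicted XM_006532592 led in retina, at 5.47 FPKM (81.8%), and was at 0.949 FPKM (15.9%) in mNRPCs. In mNRPCs the leading one was NM_001176528, at 1.74 FPKM (29.2%), against 0.00156 FPKM (0.0233%) in retina. In GENCODE M21 NM_001176528 starts 22714 bases downstream of NM_009024, which was at 1.22 FPKM in mNRPCs and at 0.486 in retina. NM_001177303, which starts 2013 bases downstream of it, was at 1.47 and 0.301 FPKM. Stra6 was spread over 9 transcripts and Cyp26b1 over 4, with no transcript above 0.517 FPKM. Fragments that fit several transcripts were divided by estimation, so shares of transcripts are less certain than sums of genes, and with 1 library a group their differences have no replicate check.

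**Figure D2:**
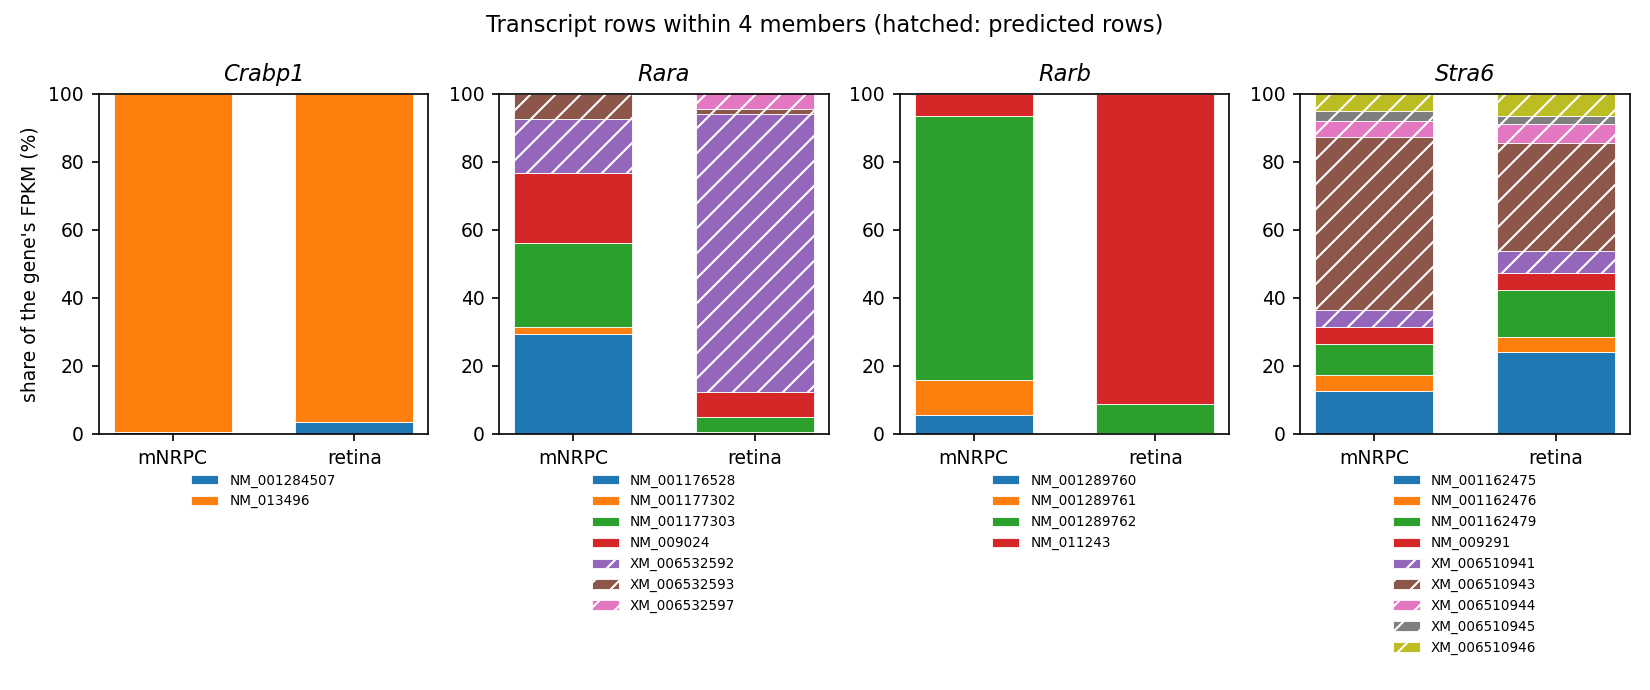
Share of a gene's FPKM (%) held by each RefSeq transcript in mNRPCs and retina for Crabp1, Rara, Rarb and Stra6, with predicted transcripts hatched. Crabp1 keeps 1 transcript in both libraries, whereas Rarb passes from NM_011243 (91.1% in retina) to NM_001289762 (77.7% in mNRPCs), and Rara from XM_006532592 (81.8% in retina) to several transcripts.

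Rara and Rarb were then set beside the third RAR gene and the RXR genes. Rarg was at 40.9 FPKM in mNRPCs and at 3.67 in retina (log2 ratio 3.16). Of the summed RAR level Rarg held 83.2% in mNRPCs and 22.6% in retina, Rara 12.1% and 41.2%, and Rarb 4.63% and 36.2%. Rarg exceeded Rara 6.86-fold in mNRPCs, while in retina Rara exceeded Rarg 1.82-fold. The retina values rest on the predicted Rara transcript. Over curated transcripts alone, an alternative chosen after seeing the data, Rarb led in retina with 63.9%, followed by Rarg with 27.2% and Rara with 8.97%, and Rarg exceeded Rara 3.03-fold. In mNRPCs the curated transcripts gave Rarg 82.2%, Rara 11.9% and Rarb 5.91%. The sum of the RAR genes was 49.1 FPKM in mNRPCs and 16.2 in retina. In mNRPCs, but not in retina, Rara and Rarb together made up a small part of this sum. Among their RXR partners Rxrb was at 17.9 and 26.9 FPKM and held 88.1% and 80.7% of the RXR level. Rxra was at 2.40 and 1.80 FPKM, and Rxrg, known from cones and ganglion cells, was at 4.61 FPKM in retina and listed at 0 in mNRPCs.

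**Figure D3:**
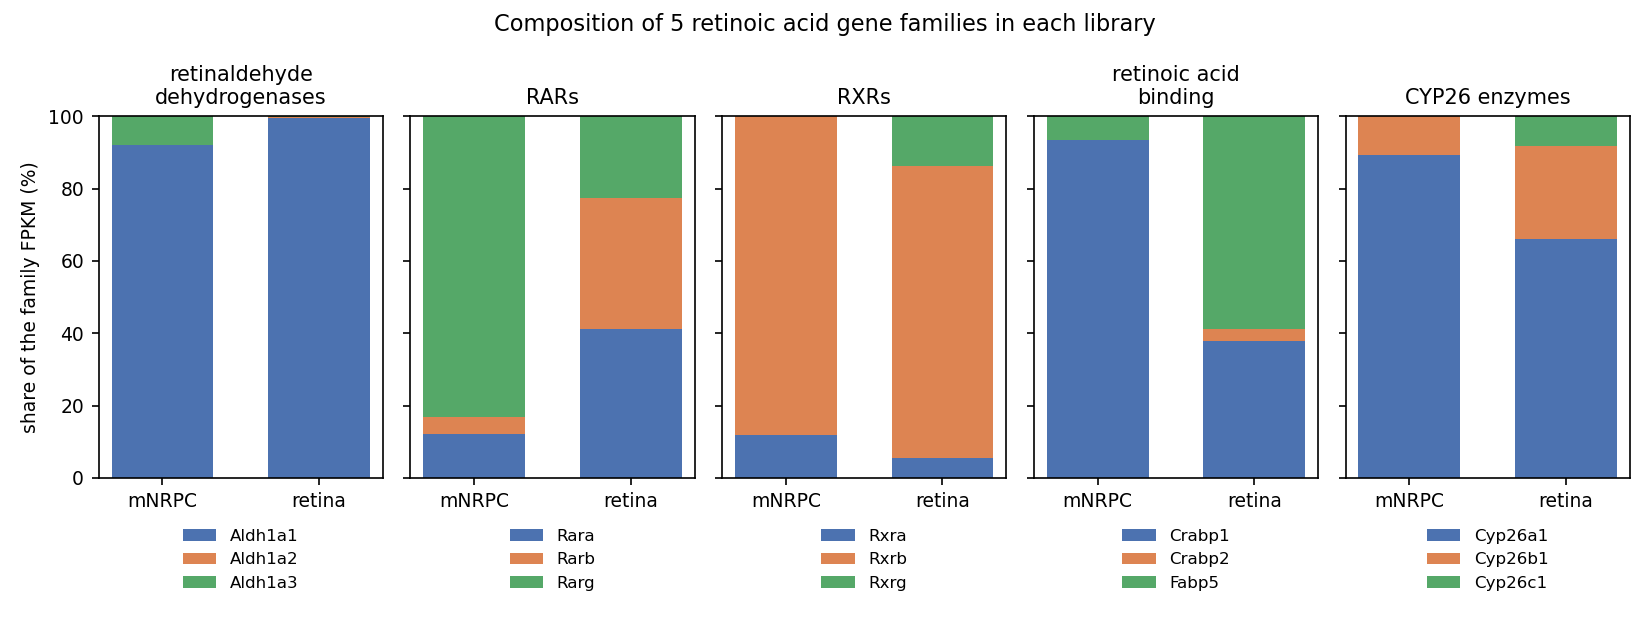
Share of the summed FPKM (%) of each family held by its 3 genes in mNRPCs and retina. The shares do not depend on the scaling of the libraries. Rarg takes 83.2% of the RAR level in mNRPCs and 22.6% in retina, where Rara falls from 41.2% to 8.97% over curated transcripts, and Crabp1 93.4% and 37.8% of the binding protein level.

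A list of 50 other genes of the pathway gave the surroundings of the 9. Of these 36 were compared, 12 were higher in mNRPCs, 11 lower and 13 between, beside 24.5% higher and 30.0% lower among all genes. The median log2 ratio of the 36 was -0.37. The genes around retinol and retinaldehyde went both ways. Adh7, an alcohol dehydrogenase with retinol among its substrates, was at 75 FPKM in mNRPCs and at 0.0561 in retina (log2 ratio 6.17). The retina value is about 0.975 fragments, and the ratio of 1335 had an interval from 233 to 51446. Adh5 was at 147 and 40.3 FPKM (1.84), Dhrs4 at 21.7 and 6.67 (1.56) and Rdh11 at 36.5 and 17.1 (1.05).

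Lower genes of this group included Rdh10, the enzyme that supplies retinaldehyde for retinoic acid in the embryo, with 0.968 FPKM in mNRPCs against 9.51 in retina (log2 ratio -2.42). Dhrs3, which turns retinaldehyde back to retinol, was at 17.9 and 51.2 FPKM (-1.46). Rdh12, a photoreceptor enzyme, was at 0.833 and 267 FPKM (-7.19), beside the rod genes given above. Ttr, the blood carrier of the retinol binding protein, and Lrat, the enzyme that esterifies retinol, were at 56.5 and 1.66 FPKM in retina and both listed at 0 in mNRPCs. Both are also on the pigment epithelium list. Rdh14 lay between, at 18.2 and 23.3 FPKM (-0.34).

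**Figure D4:**
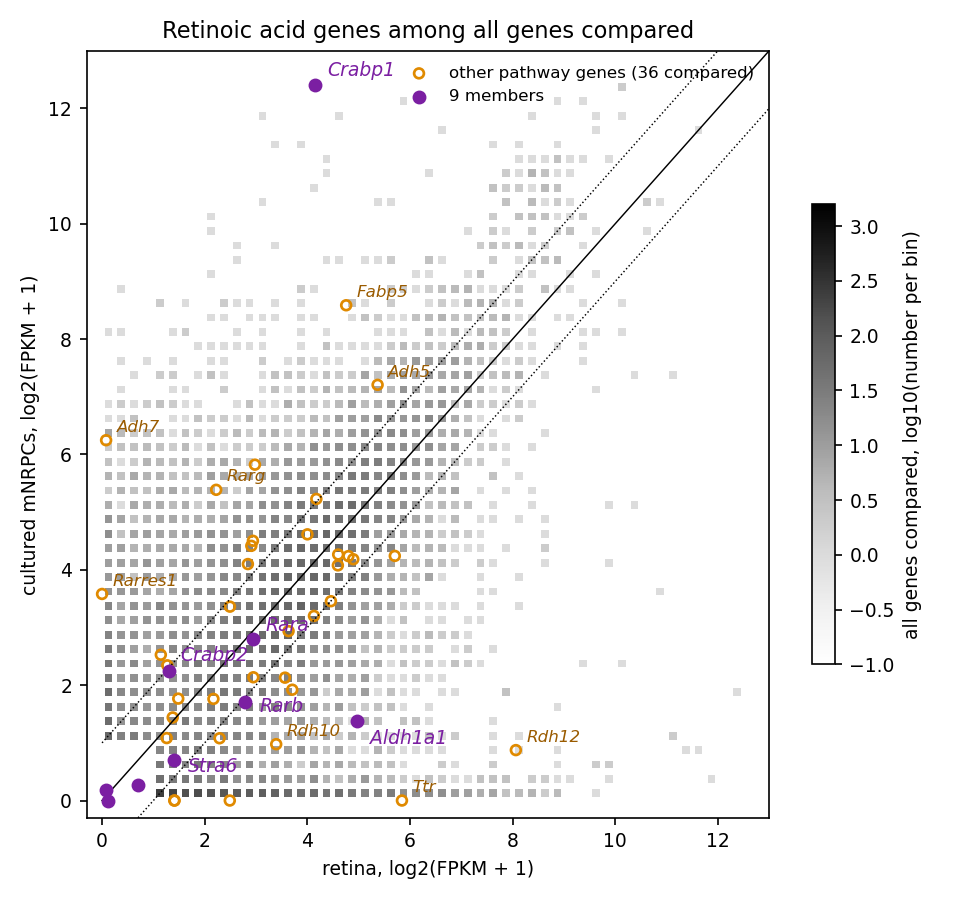
Level in mNRPCs against level in retina, both as log2(FPKM + 1), for the 9 genes (purple), 36 other pathway genes (orange) and all genes compared (grey, shaded by the number of genes per bin). The solid line marks equal levels and the dotted lines a log2 ratio of 1 in either direction; Crabp1 lies far above the lines and Aldh1a1 below them.

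Genes known to respond to retinoic acid were also listed. Of 13 listed 8 were compared, 4 were higher and 2 lower, beside 24.5% higher and 30.0% lower among all genes. Rarres1 had 11 FPKM in mNRPCs and a listed value of 0 in retina, and Tgm2, a transglutaminase, was at 4.08 and 1.41 FPKM (log2 ratio 1.07). Nr2f1 and Nr2f2, orphan nuclear receptors, had 16.1 and 20.3 FPKM in mNRPCs against 6.17 and 6.51 in retina (1.26 and 1.51). Meis1 was at 9.98 and 21.0 FPKM (-1.0), and Rarres2 was at 1.65 FPKM in retina and listed at 0 in mNRPCs. Meis2 lay between, at 15.9 FPKM in mNRPCs against 23.2 in retina. Of the 9 genes Rarb, Crabp2, Cyp26b1 and Stra6 are also known to respond to retinoic acid, and their log2 ratios were -1.07, 0.93, -0.43 and -0.69.

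Scaling bears on all of these ratios at once. With both libraries brought to the same FPKM sum, the median log2 ratio of all genes went from -0.12 to -0.68. Crabp1 was then at 7.80, Aldh1a1 at -4.30 and Rarb at -1.64, which relative to that median is 8.48, -3.62 and -0.96. The corresponding values as deposited were 8.39, -3.47 and -0.95.

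**Figure D5:**
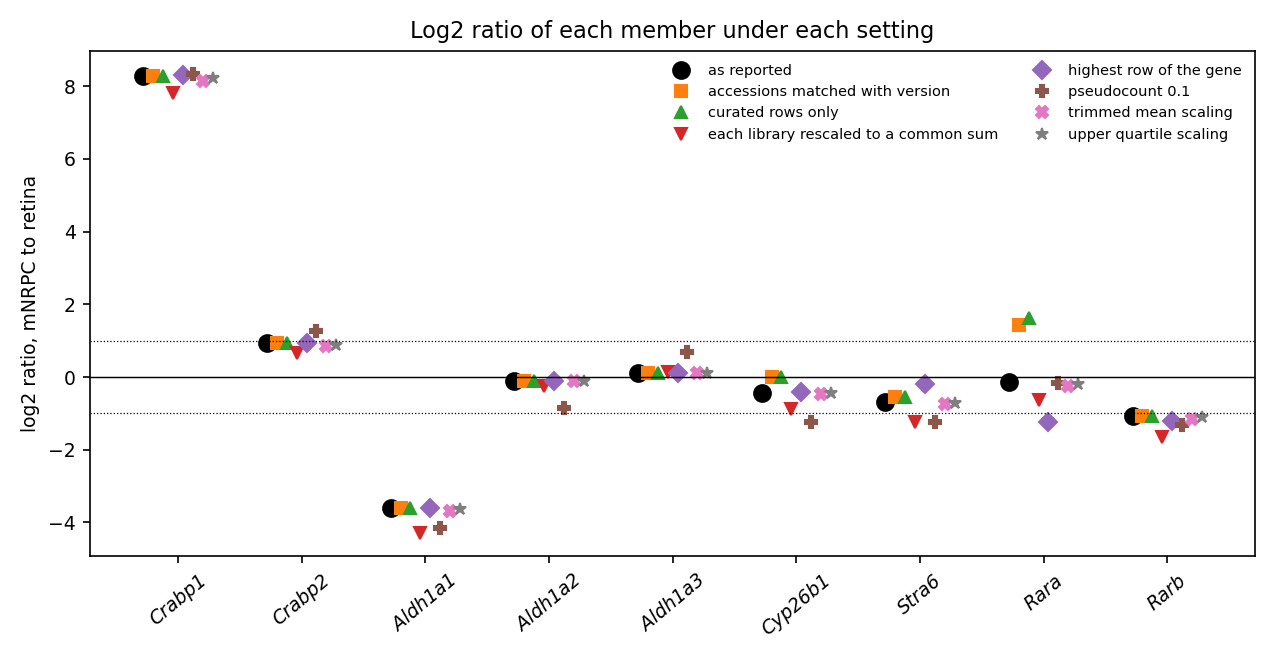
Log2 ratio (mNRPC to retina) of each of the 9 genes as reported (black circles) and under 7 other settings, with dotted lines at a log2 ratio of 1 in either direction. Crabp1 stays between 7.80 and 8.34 and Aldh1a1 between -4.30 and -3.59 in the settings drawn, while Rara runs from -1.24 to 1.61.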

How the data were processed

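The authors deposited 1 table of FPKM values, with a row for each of 106754 RefSeq transcripts and a column for each of the 2 libraries. The study's methods describe Bowtie 2 alignment and FPKM estimation with eXpress, while the submitters' processing notes name TopHat2 2.0.10 and build GRCm38.p3. The series text and the methods also name different sequencers, and which steps made the table is not settled. A value of 0 can be a failed estimate, so such genes are called listed at 0. Values under 1e-06 were read as 0.

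Accessions were matched without version to RefSeq GRCm38.p6 and then to GENCODE M21. This placed 74283 rows (69.6%), with 93.2% of the mNRPC FPKM and 89.9% of the retina FPKM, and rows were summed per symbol. RefSeq supplied the start windows. As in the study, 1 was added before the log2. Depth was the mode of FPKM times length among the lowest values, within a preset range. It used 6228 genes with 1 transcript of at least 1500 bases. Fragment ratios got 95% exact binomial (Clopper-Pearson) intervals and single levels exact Poisson intervals, both from estimated fragments. The steps were tested on simulated whole counts of genes with 1 transcript, at depths inside the preset range. The deposited values are not whole fragments, so this test cannot show that the estimated depth or the intervals hold for them. Python 3.11.15, numpy 2.4.6, pandas 2.3.3 and scipy 1.17.1 were used.

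The members and lists were chosen with earlier results of these data known. Named were the 9 members, other pathway genes past the threshold or of at least 20 FPKM in 1 library, and the 3 genes nearest to Crabp1. Some genes that this rule names are not reported here. Aldh1a7, Cyp26a1, Cyp26c1 and Rxra lie outside it and were added, after their values were seen, to complete the families. Pseudocount, scaling, filter, threshold, transcript rows and matching were varied.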

Additional observations from a re-analysis of the deposited data

How the results depend on the processing

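Over the 9 genes 64 alternative log2 ratios were calculated, of which 46 moved by less than the counting error and 18 by more. With a pseudocount of 0.1 these were -4.16 for Aldh1a1, -0.86 for Aldh1a2, 0.69 for Aldh1a3, -1.24 for Cyp26b1 and -1.24 for Stra6. Rescaling to a common sum gave -4.30 for Aldh1a1, 7.80 for Crabp1, -0.87 for Cyp26b1, -0.63 for Rara, -1.64 for Rarb and -1.23 for Stra6, lower by construction. Curated transcripts alone gave -0.0039 for Cyp26b1 and 1.61 for Rara, and accessions matched by version -0.0039 and 1.44. The highest transcript alone gave -1.24 for Rara and -0.20 for Stra6, and Aldh1a1 summed with Aldh1a7 -3.14. The number of members higher was 2 with a pseudocount of 0.1 (Crabp2 added), with curated transcripts and with matching by version (Rara added). The number lower was 3 with a pseudocount of 0.1 and after rescaling (Stra6 added) and with the highest transcript (Rara added). At a threshold of 2 it was 1.

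The other pathway genes had 17 lower after rescaling, 7 with matching by version and 7 at a minimum of 5 FPKM, and at a threshold of 2 there were 5 higher and 4 lower. Their median was -0.72 after rescaling, -0.48 with trimmed mean scaling, -0.12 with curated transcripts, -0.18 with the highest transcript, -0.026 with matching by version and 0.0 without a filter. For all genes the median was -0.68, -0.24 and -0.0099 in the first 3 of these, 0.0 without a filter and 0.039 at 5 FPKM, with 6349 genes lower after rescaling and 1547 higher and 1942 lower at a threshold of 2. Where no construction is named the cause was not tested. Depth limits Aldh1a2, Aldh1a3 and Cyp26b1. No paired analysis was possible because neither group was replicated, nor could a library be left out.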

Other observations

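Factors that lay out dorsal and ventral retina, where Aldh1a1 and Aldh1a3 are placed in the embryo, were also listed. Of 9 listed, 6 were compared, 3 were lower and 2 higher, beside 30.0% lower and 24.5% higher among all genes. Vax2, a ventral factor, was at 3.98 FPKM in mNRPCs and at 38.5 in retina (log2 ratio -2.99), and Tbx2, a dorsal factor, at 4.79 and 23.0 FPKM (-2.05). Tbx3 and Tbx5 had 2.60 and 0.837 FPKM in retina and were listed at 0 in mNRPCs. The ephrin genes Efnb1 and Efnb2 were the higher ones, at 22.5 and 46.2 FPKM in mNRPCs and 4.91 and 4.59 FPKM in retina (1.99 and 3.08).

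The cofactors through which RAR and RXR pairs act were measured in both libraries. All 8 listed were compared, of which 3 were lower, 1 was higher and 4 lay between, and among all genes 30.0% were lower and 24.5% higher. The coactivator genes Ncoa1 and Ncoa2 had 3.38 and 2.79 FPKM in mNRPCs against 10.8 and 12.1 in retina (log2 ratios -1.43 and -1.79), while Ncoa3 was at 4.76 and 1.21 FPKM (1.38). Nrip1, a corepressor that retinoic acid induces, was at 1.11 and 3.89 FPKM (-1.21). Ncor1, the corepressor of unliganded receptors, was at 23.5 and 15 FPKM (0.61).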
